A study of Homo sapiens with 2 samples.

Results

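Heat shock transcription factor 1 (HSF1), its relative HSF2 and 8 chaperone genes were described in RKO cells with and without an siRNA against the splicing factor SRSF2. The members were HSF1, HSF2, HSPA1A, HSPA1B, HSPA8, HSPH1, DNAJB1, HSP90AA1, HSPB1 and HSPD1, which are 10 of the 54261 gene symbols in the count table. HSF1 was chosen by a measured value, the use of one of its exons in these same libraries, and the chaperone genes were chosen by their known place downstream of HSF1 with results of these data known. The values below are therefore descriptions, and no test was run on them. Exon reads of HSF1 were not analysed here, so the report gives gene counts only.

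RKO is a human colon carcinoma cell line. RKO cells were transfected with si-NC, a negative control siRNA, or with si-SRSF2, which targets SRSF2, and there was 1 poly(A) RNA-seq library per group. The time from transfection to RNA extraction was not given in the labels or the methods text. With 1 library per group, no difference had a replicate check, and both groups were transfected, so an effect of transfection that they share was not measured.

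HSF1 is the main transcription factor of the heat shock response. In resting cells it is held inactive, in part by chaperones, and when unfolded proteins draw those chaperones away it forms trimers, enters the nucleus and binds heat shock elements, inverted repeats of a short unit, in the promoters of chaperone genes. The chaperones then bind unfolded proteins, hold them in solution or fold them with the energy of ATP, and tumour cells are known for a high level of many of them.

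The si-NC library had 19931360 counts and the si-SRSF2 library 14512802. Counts were divided by effective library sizes to give CPM, the count per 1000000 counts of the library, and each log2 ratio, si-SRSF2 over si-NC, was formed after adding 0.5 CPM. A count of 0 allows up to 3 counts, which was 0.151 CPM with si-NC and 0.207 CPM with si-SRSF2. Each ratio is given with a 95% Clopper-Pearson interval computed from the counts alone, which covers counting error only and not the variation between transfections. The interval is of the ratio without the added 0.5 CPM. At low counts the printed ratio is therefore nearer to 0 than the ratio that the interval describes. Where values come in pairs, that of si-NC is first.

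SRSF2, the target of the siRNA, was examined first. It had 1964 counts with si-NC and 713 with si-SRSF2, or 98.5 and 49.1 CPM, a log2 ratio of -0.997 (interval -1.13 to -0.88). The library labelled as the knockdown thus held 49.9% of the control level. Exons of MFSD11 on the opposite strand cover 30.1% of the canonical SRSF2 exon bases, and the strand setting of the counting was not given in the sources used here. The sense strands of both siRNAs are shown to set them beside the chaperone transcripts, in lower case with the overhang in capitals.
si-NC: uucuucgaacgugucacguTT
si-SRSF2: uccaaauccaggucgcgauTT
The 19 bases of si-SRSF2 before the overhang lie in exon 2 of the canonical SRSF2 transcript, at chr17:76736211-76736229 on the minus strand of GRCh38. Of 124 HSF, HSF regulator and chaperone genes with a canonical transcript, 0 held these 19 bases or their reverse complement, and the same was true of si-NC. Only full matches in the canonical transcript of each gene were searched. Partial matches and other transcripts were not, so an effect of either siRNA on these genes through them was not tested.

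HSF1 itself had nearly the same level in both libraries. It had 2418 counts with si-NC and 1770 with si-SRSF2, or 121 and 122 CPM, a log2 ratio of 0.01 (interval -0.08 to 0.10). HSF2, which can form trimers with HSF1 and has roles in development, had 1061 and 653 counts, or 53.2 and 45.0 CPM. Its log2 ratio was -0.24 (interval -0.39 to -0.10), lower with si-SRSF2 beyond counting error but by less than 20%. Of the bases in the canonical exons of HSF1, 6.42% are also covered by exons of genes on the opposite strand, among them DGAT1. Since the strand setting was not given, reads from that stretch may have been assigned otherwise.

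**Figure D1:**
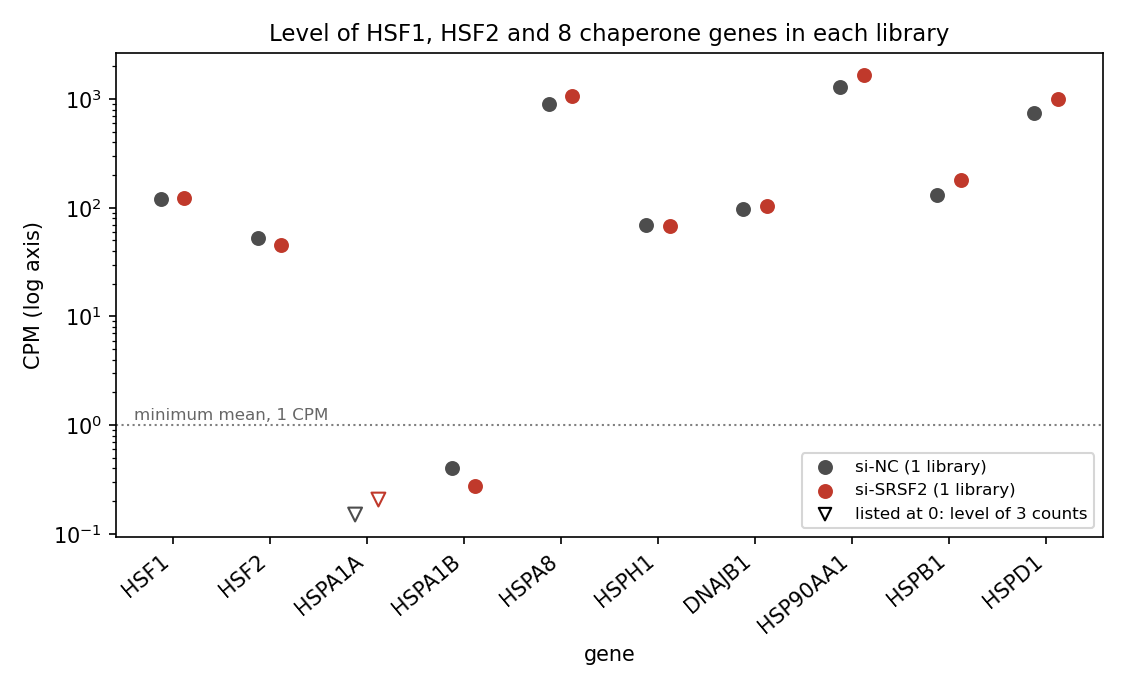
Level of HSF1, HSF2 and the 8 chaperone genes in CPM on a log axis, with 1 point for the si-NC library and 1 for the si-SRSF2 library. HSP90AA1, HSPA8 and HSPD1 lie highest, HSPA1B lies below the minimum mean of 1 CPM, and HSPA1A, listed at 0, is drawn as triangles at the level of 3 counts.

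The cytosolic chaperone HSP90AA1, the stress-inducible form of HSP90, which matures kinases and steroid receptors, was the most abundant member. It had 25843 counts with si-NC and 24177 with si-SRSF2, or 1297 and 1666 CPM. It was 1.28-fold higher with si-SRSF2, a log2 ratio of 0.36 (interval 0.34 to 0.39). HSPD1, the mitochondrial chaperonin HSP60, had 14942 and 14566 counts, or 750 and 1004 CPM. It was 1.34-fold higher, a log2 ratio of 0.42 (interval 0.39 to 0.45). HSPB1, the small heat shock protein HSP27, which holds unfolded proteins without using ATP, had 2617 and 2593 counts, or 131 and 179 CPM. It was 1.36-fold higher, a log2 ratio of 0.44 (interval 0.37 to 0.52).

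HSPA8, the constitutive cytosolic HSP70 that binds newly made proteins, had 17815 and 15518 counts, or 894 and 1069 CPM. Its log2 ratio was 0.26 (interval 0.23 to 0.29), a difference that lay beyond counting error and below 25%. DNAJB1, a J protein that hands substrates to HSP70 and starts its ATP cycle, had 1929 and 1508 counts, or 96.8 and 104 CPM, a log2 ratio of 0.10 (interval 0.00413 to 0.20). HSPH1, the HSP110 nucleotide exchange factor of HSP70, had 1373 and 989 counts, or 68.9 and 68.1 CPM. Its log2 ratio was -0.02 (interval -0.14 to 0.10) and changed sign, to 0.00864, with upper-quartile scaling.

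The stress-inducible HSP70 genes were all but unseen. HSPA1A was listed at 0 in both libraries, so no ratio is given. HSPA1B had 8 counts with si-NC and 4 with si-SRSF2, or 0.401 and 0.276 CPM, and the interval of its ratio ran from -2.72 to 1.36. Both fell below the minimum mean of 1 CPM, so 8 of the 10 members entered the comparison of ratios.

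Of these 8 genes, 3 (HSP90AA1, HSPB1 and HSPD1) were at least 25% higher with si-SRSF2 and 0 were at least 20% lower, equal steps of 0.32 on the log2 scale. Of the 12620 genes that passed the minimum mean of 1 CPM, 11.8% were at least 25% higher and 13.3% at least 20% lower. Among the 211 genes at a mean of 500 CPM or more, where HSP90AA1, HSPA8 and HSPD1 lie, these shares were 5.69% and 4.74%. At 1.5-fold, 0 of the 8 were higher and 0 were lower, while 4.18% of all genes tested were higher and 3.52% lower. The gene just inside the limit of 25% was HSP90AA1 and the gene just outside was HSPA8. The median log2 ratio of the 8 was 0.18, beside -0.02 over all genes tested and 0.05 over the genes at a mean of 500 CPM or more. Together the 10 members took 0.341% of the counts with si-NC and 0.426% with si-SRSF2.

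**Figure D2:**
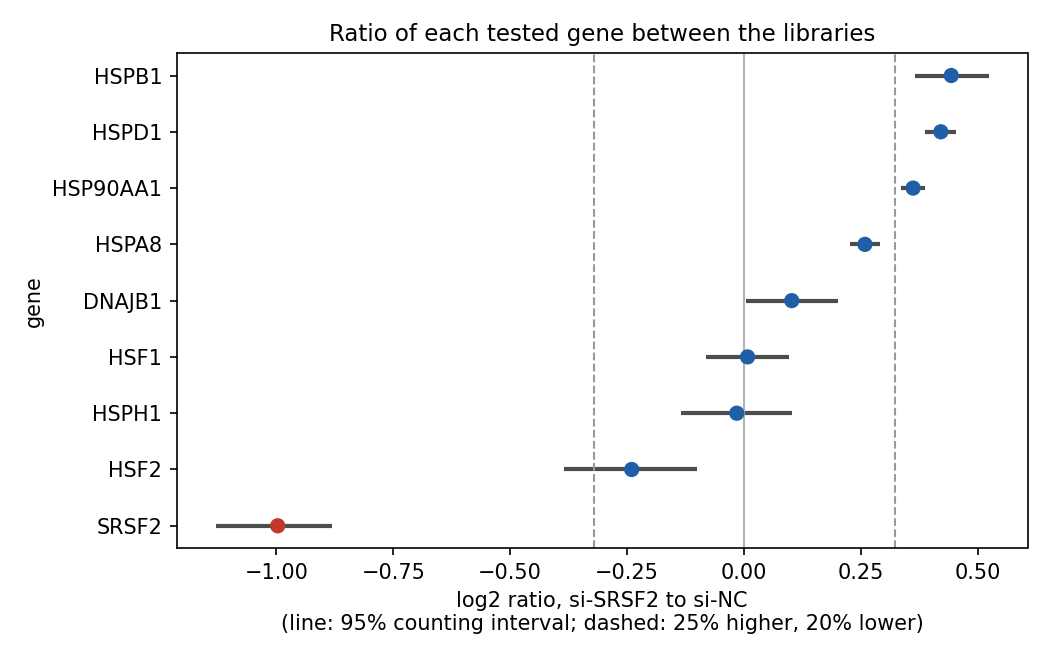
Log2 ratio, si-SRSF2 over si-NC, for the 8 members with a mean of at least 1 CPM and for SRSF2, each from 1 library per group, with 95% counting intervals as lines and the limits of 25% higher and 20% lower as dashed lines. HSP90AA1, HSPD1 and HSPB1 lie past the upper dashed line at 0.36, 0.42 and 0.44, and HSF1 lies at 0.01.

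Levels of different genes were compared as CPM per kilobase of the canonical transcript, with exact Poisson intervals of the counts. In si-NC the order ran from HSP90AA1 at 402, HSPA8 at 395 and HSPD1 at 334 to HSPB1 at 169. HSF1 at 56.9 and DNAJB1 at 43.2 followed, then HSF2 at 20.5 and HSPH1 at 13.1. In si-NC the intervals of HSP90AA1 (397 to 407) and HSPA8 (389 to 401) overlapped, and the intervals of all other neighbours in that order did not. In si-SRSF2 the order was the same, from HSP90AA1 at 516, HSPA8 at 472 and HSPD1 at 447 to HSPH1 at 13.0, and no intervals of neighbours overlapped. HSF1 was thus the fifth of the 8 members in level in both libraries, below the chaperones HSP90AA1, HSPA8, HSPD1 and HSPB1.

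The promoters of the members were read from RefSeq windows of 300 bases on GRCh38, which run from 250 bases before to 50 bases after a gene's start. A window was found for 9 of the 10 members, all but HSF1. The windows were searched for heat shock element letters with 3 units, GAANNTTCNNGAA or TTCNNGAANNTTC, and with 2 units, GAANNTTC or TTCNNGAA, which covers both strands since each form's reverse complement is in the set. Every element of 3 units also holds 2 overlapping elements of 2 units. Of all 35116 promoter windows, 0.490% held 3 units and 13.5% held 2 units. Some genes have several windows, and counted by gene, with any window holding the letters, the shares were 0.608% and 16.2% of 27305 genes. Elements of 3 units stood in 3 of the 9 members with a window, HSPA8, HSP90AA1 and HSPD1, and elements of at least 2 units in 7 of the 9. A match is a description of the letters and not a site of binding.

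The stretches are shown so that the letters can be compared between chaperone families that differ in structure. Capitals mark the element, each stretch is written 5' to 3' on the strand of the gene, and all but the HSPB1, DNAJB1 and HSPA1 stretches have 3 units.
HSP90AA1, chr14:102087096-102087156, minus strand, element at position -88 from the start: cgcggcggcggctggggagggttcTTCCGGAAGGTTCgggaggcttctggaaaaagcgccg
HSPA8, chr11:123062171-123062199, minus strand, element at position -55: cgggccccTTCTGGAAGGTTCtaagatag
HSPA8, chr11:123062346-123062374, minus strand, element at position -230: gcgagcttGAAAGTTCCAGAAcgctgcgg
HSPD1, chr2:197500060-197500088, minus strand, element at position -240: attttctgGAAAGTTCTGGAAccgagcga
HSPB1, chr7:76302467-76302522, plus strand, element at position -182: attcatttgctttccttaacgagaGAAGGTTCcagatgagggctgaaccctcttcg
DNAJB1, chr19:14518413-14518468, minus strand, element at position -47: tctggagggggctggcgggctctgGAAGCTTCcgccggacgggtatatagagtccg
HSPA1A, chr6:31815413-31815468, plus strand, element at position -106: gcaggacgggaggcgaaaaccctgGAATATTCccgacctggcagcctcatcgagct
HSPA1B, chr6:31827609-31827664, plus strand, element at position -105: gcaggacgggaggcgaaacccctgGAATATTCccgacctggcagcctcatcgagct
All of these stretches lie upstream of the canonical start and outside canonical exons. The HSPA8 and HSPD1 elements fall in exons of other annotated transcripts of the same genes. In HSP90AA1 an element of 2 units outside the capitals starts at position -68, within the stretch shown. In DNAJB1 another element of 2 units starts at position -77, and another window of that gene holds 1 that starts 461 bases after the canonical start. In HSPD1 another element of 3 units starts at position -245 and overlaps the one shown. The windows of HSF2 held 0 elements of 2 units. The only HSPH1 window also held 0, but it is set on a start at position -484 from the canonical start, so the promoter at the canonical start of HSPH1 was not searched.

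**Figure D3:**
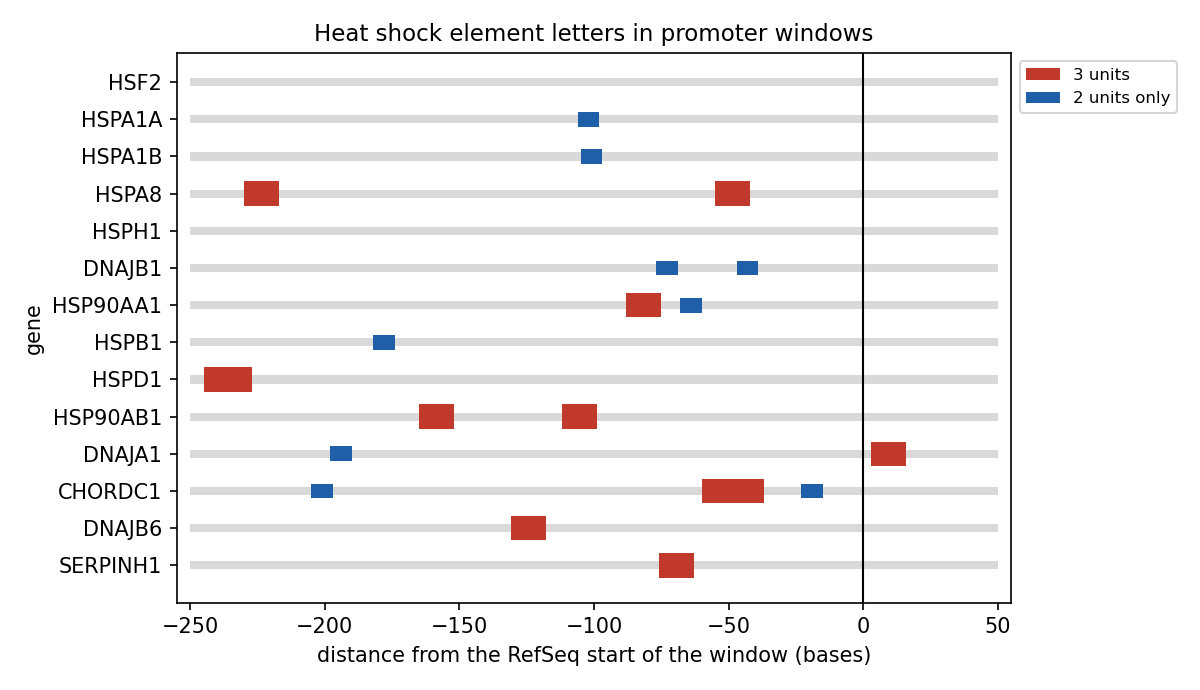
Heat shock element letters in 1 promoter window of 300 bases for each member with a window and for HSP90AB1, DNAJA1, CHORDC1, DNAJB6 and SERPINH1, against the distance in bases from the RefSeq start of the window. Red bars are elements of 3 units and blue bars are elements of 2 units outside them, with HSPA8 holding red bars at -230 and -55 and HSP90AA1 at -88.

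The same letters were then looked up in the promoters of all genes tested. Of 8967 genes tested with a promoter window, 44 held 3 units, and their median log2 ratio was 0.03, beside -0.03 for all 8967. Of the 44, 5 were at least 25% higher and 3 at least 20% lower, while of all 8967 these shares were 9.16% and 12.5%. The 8 of them that belong to the chaperone lists were HSP90AA1, HSPA8, HSPD1, HSP90AB1, DNAJA1, CHORDC1, DNAJB6 and SERPINH1. HSP90AB1 entered through a window downstream of its canonical start, with elements 677 and 730 bases after that start, and its other windows, one of them at that start, held 0. The median of the 8 was 0.25, with 6 above 0, and the median of the other 36 was -0.02. HSP90AA1, HSPA8 and HSPD1 among the 8 are members whose ratios are given above. The lists were chosen with results of these data known, so this split only describes the same values again. Of all 8967, 44.6% lay above 0. HSP90AA1, HSPA8, HSPD1 and HSP90AB1 are among the genes at a mean of 500 CPM or more, of which 63.5% lay above 0, beside 45.6% at 100 CPM or more. CHORDC1, an HSP90 partner with 3 overlapping elements of 3 units, had 95.7 CPM with si-NC and 83.1 with si-SRSF2, a log2 ratio of -0.20 (interval -0.31 to -0.10).

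The wider list of heat-inducible HSF1 targets held 31 genes, of which 25 passed the minimum. Of these, 6 were at least 25% higher and 1 was at least 20% lower, and the median was 0.12 with 19 above 0. The shares over all genes tested were 11.8% higher, 13.3% lower and 46.2% above 0. Of the 2459 genes at a mean of 100 CPM or more, 117 were higher, 144 were lower and 45.6% lay above 0, and of the 211 at 500 CPM or more 63.5% lay above 0. Members of the list are shared with the 10 genes above. AHSA1, which starts the ATPase of HSP90, had 112 CPM with si-NC and 150 with si-SRSF2, a log2 ratio of 0.42 (interval 0.34 to 0.51). HMOX1, the heme oxygenase that many stresses induce, had 162 and 208 CPM, a log2 ratio of 0.36 (interval 0.29 to 0.44). STIP1, also called HOP, which joins HSP70 to HSP90, was the 1 gene on the lower side. It had 6004 and 2702 counts, or 301 and 186 CPM, a log2 ratio of -0.69 (interval -0.76 to -0.63). BAG3, an inducible HSP70 partner in autophagy, had 59.8 and 52.1 CPM, a log2 ratio of -0.20 (interval -0.33 to -0.07). HSPA6, an HSP70 gene that is nearly silent without stress, had 4 and 1 counts, and CRYAB, a small heat shock protein, had 0 and 2.

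Among HSF factors and HSF1 regulators, 13 of 15 genes passed the minimum, 1 was at least 25% higher and 0 at least 20% lower, and the median was -0.05. Over all genes tested these shares were 11.8% and 13.3%. The 1 higher gene was FBXW7, the ubiquitin ligase subunit that marks phosphorylated HSF1 for breakdown, with 35.5 CPM with si-NC and 52.4 with si-SRSF2, a log2 ratio of 0.56 (interval 0.41 to 0.71). HSF4, a factor known from the lens, had 29.2 and 24.5 CPM, a log2 ratio of -0.25 (interval -0.45 to -0.06), close to the value of HSF2. Exons of another gene on the same strand cover 23.3% of the canonical HSF4 exon bases, and how reads there were assigned was not tested. HSF5 was listed at 0 in both libraries.

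In the HSP70 and HSP110 family, 9 of 14 genes passed the minimum, 2 were at least 25% higher and 0 at least 20% lower, with a median of 0.13. Over all genes tested these shares were 11.8% and 13.3%. HSPA4L, an HSP110 relative of HSPH1, had 107 and 147 CPM, a log2 ratio of 0.46 (interval 0.38 to 0.55), beside -0.02 for HSPH1. HYOU1, the HSP110 form of the endoplasmic reticulum, had 89 and 87 counts, a log2 ratio of 0.39 whose interval (-0.02 to 0.87) held 0. HSPA5, the HSP70 of the endoplasmic reticulum, had 1267 and 1384 CPM, and HSPA9, that of mitochondria, had 861 and 944 CPM. Their log2 ratios were both 0.13, so the constitutive HSP70 genes of these compartments lay between DNAJB1 and HSPA8.

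In the list of HSP90 and its co-chaperones, 15 of 16 genes passed the minimum, 2 (HSP90AA1 and AHSA1) were at least 25% higher and 1 (STIP1) at least 20% lower, with a median of 0.11. Over all genes tested these shares were 11.8% and 13.3%. HSP90AB1, the constitutive cytosolic HSP90, had 40405 and 34995 counts, or 2027 and 2411 CPM. Its log2 ratio was 0.25 (interval 0.23 to 0.27), below that of HSP90AA1, and the intervals did not overlap. Of the 31-base stretches of the HSP90AA1 transcript, 0 occur in that of HSP90AB1.

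All 20 J proteins of the HSP40 list passed the minimum, 0 were at least 25% higher and 3 at least 20% lower, with a median of 0.04. Over all genes tested these shares were 11.8% and 13.3%. DNAJB5 had 19.2 and 14.4 CPM, a log2 ratio of -0.40 (interval -0.67 to -0.17), and DNAJB14, a J protein of the endoplasmic reticulum membrane, had 84.5 and 66.7 CPM, a log2 ratio of -0.34 (interval -0.46 to -0.23). The third was DNAJA3, at a low mean of 4.58 CPM, described with the HSPA1 genes below, where copies in the reference are treated. Of the small heat shock proteins only HSPB1 passed, 1 of 9.

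Of the 13 chaperonins, which form ring-shaped folding chambers, and their relatives, all 13 passed the minimum, 2 were at least 25% higher and 1 at least 20% lower, with a median of 0.11. Over all genes tested these shares were 11.8% and 13.3%. CCT5, a subunit of the cytosolic TRiC ring, had 187 and 303 CPM, a log2 ratio of 0.69 (interval 0.63 to 0.76), while the other TRiC subunits ran from -0.16 for CCT2 to 0.23 for CCT6A. Of the canonical CCT5 exon bases, 52.7% are also covered by a gene on the opposite strand, so its count carries the same limit on strand as that of HSF1. BBS12 had 7.63 and 5.03 CPM, a log2 ratio of -0.56 (interval -1.02 to -0.19). HSPE1, the lid HSP10 of the HSPD1 chamber, had 213 and 184 counts, or 10.7 and 12.7 CPM, a log2 ratio of 0.24 (interval -0.05 to 0.54). HSPE1 and HSPD1 are transcribed in opposite directions from starts 539 bases apart. In si-NC the level of HSPE1 was 19.2 CPM per kilobase, beside 334 for HSPD1. The readthrough gene HSPE1-MOB4 covers 34.5% of the HSPE1 exon bases and was listed at 0, and 26 HSPE1 pseudogenes in the table held a summed 28 and 43 counts.

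Among HSP70 exchange factors and partners, 12 of 13 passed, 1 was at least 25% higher and 0 at least 20% lower, and the median was -0.07 with 3 above 0. Over all genes tested 11.8% were higher, 13.3% lower and 46.2% above 0, which also serves for the next lists. The higher gene was ST13, also called HIP, which steadies HSP70 in its bound state, with 304 and 438 CPM, a log2 ratio of 0.53 (interval 0.48 to 0.58). ST13 and STIP1, which both bind HSP70, thus lay past the limits in opposite directions. All 16 endoplasmic reticulum chaperones passed, 2 were at least 25% higher and 0 at least 20% lower, with a median of 0.08. The lectin chaperone CALR had 1182 and 1625 CPM, a log2 ratio of 0.46 (interval 0.43 to 0.49). A gene on the opposite strand covers 14.2% of its canonical exon bases, so the limit on strand given for HSF1 holds here too. All 14 mitochondrial chaperones and proteases passed, 2 were at least 25% higher and 1 at least 20% lower, with a median of 0.02. The matrix protease LONP1 had 213 and 285 CPM, a log2 ratio of 0.42 (interval 0.36 to 0.48), equal to that of HSPD1 at this rounding. Prefoldin, which passes actin and tubulin chains to TRiC, had 5 of 6 subunits past the minimum, 0 past the limit in either direction and a median of -0.09.

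**Figure D4:**
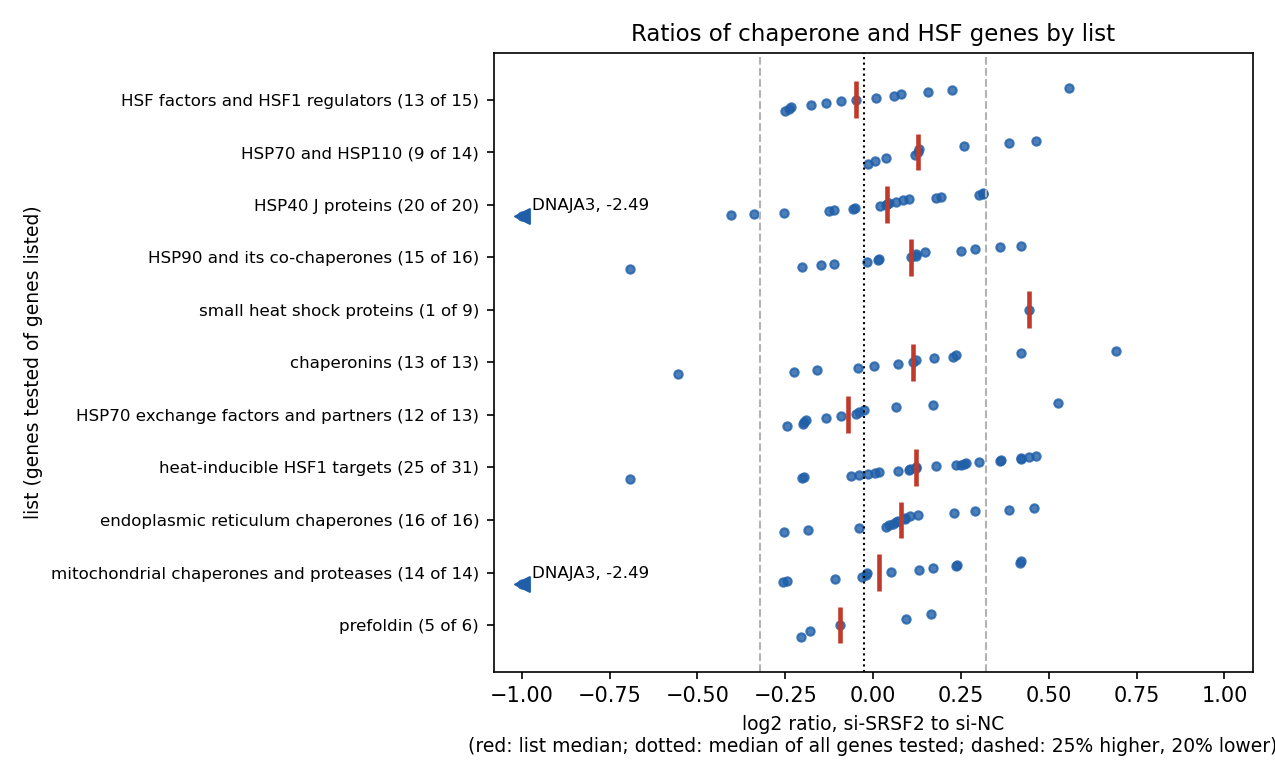
Log2 ratio, si-SRSF2 over si-NC, for each tested gene of 11 overlapping lists, 1 point a gene, with red bars at the list medians, a dotted line at the median of all genes tested and dashed lines at 25% higher and 20% lower. The medians lie between -0.09 for prefoldin and 0.44 for the small heat shock proteins, a list with 1 tested gene, and DNAJA3 is drawn at the left edge with its value.

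Taking each gene of the chaperone and HSF1 target lists once gave 111 genes, of which 95 passed the minimum. Of these, 11 were at least 25% higher and 5 at least 20% lower, and their median was 0.05 with 58 above 0. Of all genes tested, 11.8% were higher and 13.3% lower by these limits and 46.2% lay above 0. The share above 0 was 45.6% at a mean of 100 CPM or more and 63.5% at 500 CPM or more. The median of the 8 members was 0.18, and no test of that difference was made because the members were chosen with results known.

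The counts of the HSPA1 genes were set beside their position and their copies in the reference. HSPA1A lies at chr6:31815543-31817946 and HSPA1B at chr6:31827738-31830254 on GRCh38, each with 1 exon, and 76.9% of the 31-base stretches of the HSPA1A transcript occur in that of HSPA1B. Exons of another gene on the same strand cover 36.6% of the canonical HSPA1B exon bases. How reads there were assigned was not tested. Of the 40 other protein-coding genes listed within 250 kb of the HSPA1A start, 39 had at most 10 counts over both libraries and 37 had 0. For all distances between neighbours, the start of a gene was its lower coordinate on the chromosome, whatever its strand. Over all 18316 protein-coding genes listed, 39.6% had at most 10 counts. Genes of general use in that stretch, such as LSM2, NELFE and CSNK2B, named after their values were seen, were listed at 0. A 0 for HSPA1A in this table therefore stands among neighbours that were also at 0. Low neighbours also stood around abundant members. HSPA8, with 33333 counts over both libraries, had 3 neighbours, of which 3 had at most 10 counts. For HSPD1, with 29508 counts, it was 4 of 8, and for HSP90AA1, with 50020, it was 0 of 4.

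The reference holds 261 alternate scaffolds, extra copies of variable regions, and 98.7% of the sampled 31-base stretches of HSPA1A and 98.8% of HSPA1B occur on them. Of 124 genes of the HSF and chaperone lists, 6 had at least 80% of their stretches there. These were HSPA1A, HSPA1B, HSPA1L, BAG6, PFDN6 and DNAJA3, of which the last 4 were named after their values were seen. HSPA1L, BAG6 and PFDN6 were listed at 0 in both libraries. DNAJA3, a mitochondrial J protein, had 162 and 15 counts, or 8.13 and 1.03 CPM, a log2 ratio of -2.49 (interval -3.85 to -2.21), and of its 13 listed protein-coding neighbours within 250 kb 7 had at most 10 counts. Among the other members, this share was 8.75% for HSP90AA1 and 6.31% for HSPD1. The study's methods name GRCh38 with Ensembl release 100 for the alignment. Whether alternate scaffolds were among the sequences and how reads with several places were handled were not given in the sources used here, and the part of the alternate scaffolds in these counts was not tested.

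**Figure D5:**
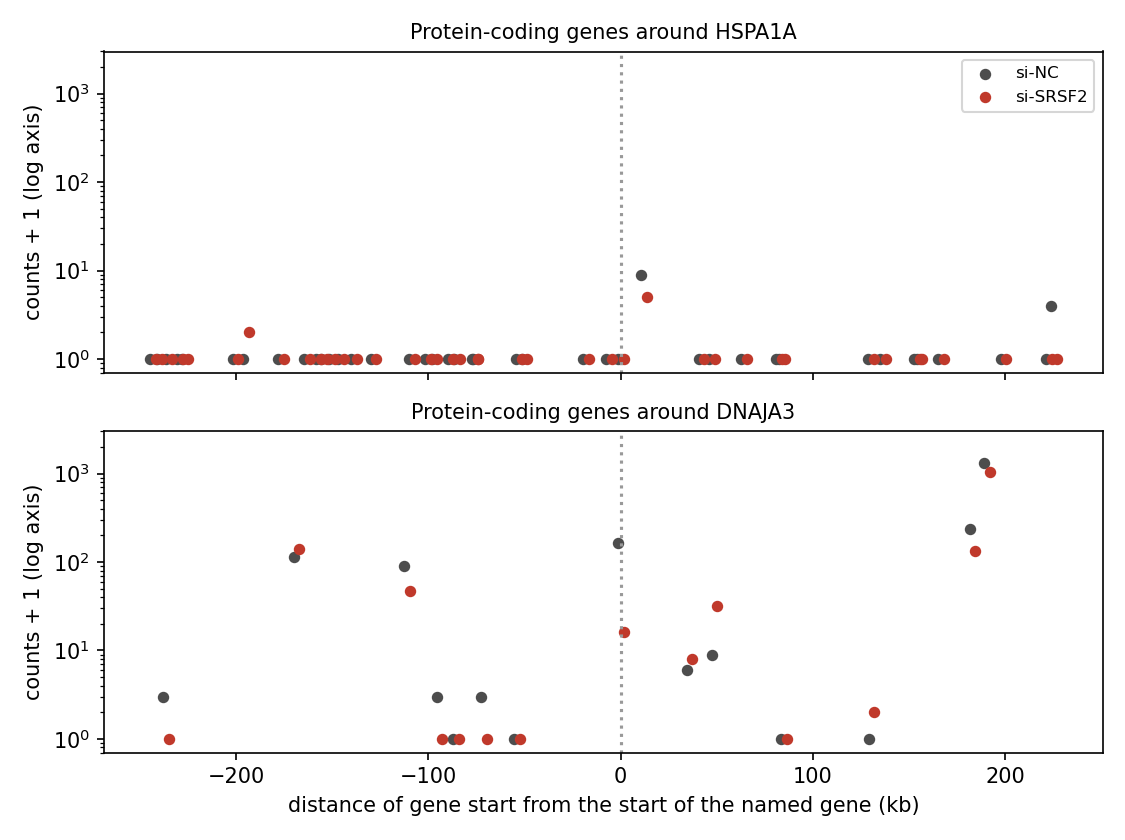
Counts plus 1, on a log axis, of the protein-coding genes within 250 kb of the start of HSPA1A (top) and DNAJA3 (bottom), against the distance of each gene start in kb, with grey points for si-NC and red points for si-SRSF2. A gene start here is its lower coordinate on the chromosome, whatever its strand. Around HSPA1A, 37 of the 40 neighbours lie at 0 counts in both libraries.

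Several members have processed copies in the genome, and the table counts these apart. HSP90AA1 has 5 pseudogenes in the table with a summed 170 counts with si-NC and 219 with si-SRSF2, which is 0.658% and 0.906% of its own counts. HSPD1 has 22 with a summed 284 and 280 counts, or 1.90% and 1.92%, and HSPA8 has 20 with a summed 29 and 24, or 0.163% and 0.155%. The counts on the copies were thus small beside those of HSP90AA1, HSPD1 and HSPA8. How reads shared between a gene and its copies were assigned was not given in the sources used here.

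The label of the cells was set beside markers. EPCAM had 179 counts with si-NC and 147 with si-SRSF2, KRT8 547 and 618, KRT18 632 and 477, and the intestinal factor CDX2 212 and 158. KRT20, CDX1 and LGALS4 were listed at 0 in both libraries, KRT19 and VIL1 had 1 count in each, and CDH1 had 10 and 6, so several colon epithelial markers were at or near 0 in this table. Whether these genes have neighbours at 0 or copies on alternate scaffolds was not tested, so their counts are not read as absence from the line. Of the 11 epithelial and colon markers searched, 5 passed the minimum. Of these, 1, KRT8, was at least 25% higher and 0 lay past the lower limit. Over all genes tested, 11.8% were higher and 13.3% lower by these limits. The 13 markers of other cell types summed to 2.51 CPM with si-NC and 4.13 CPM with si-SRSF2, 6 of them were at 0 in both, and the most abundant, ACTA2, had 24 and 41 counts. ACTA2 was the only one of the 13 to pass the minimum. It was at least 25% higher, a log2 ratio of 0.96 (interval 0.47 to 2.02). PTPRC had 2 and 0 counts and PECAM1 0 in both. In a bulk library, a change in the mix of cell states and a change of RNA per cell cannot be told apart.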

How the data were processed

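Poly(A) RNA of RKO cells was sequenced as strand-specific libraries with paired 150-base reads, 1 library per group. The deposited values are gene counts per symbol that the authors made with HTSeq after alignment to GRCh38, with HISAT2 2.0.4 per the submitters' processing notes, and are not normalized. Effective library sizes came from the TMM method of edgeR 4.0.16 in R 4.3.3. Ratios, intervals and searches were computed in Python 3.11.15 with NumPy 2.4.6, pandas 2.3.3 and SciPy 1.17.1 and were tested on simulated data. Genes needed a mean of at least 1 CPM, and 0.5 CPM was added before log2. The members and lists were chosen with earlier results of these data known. The text names SRSF2, all members, up to 4 genes per list past the limit (25% higher or 20% lower) with a mean of at least 5 CPM, and HSP90AB1, HSPE1, BAG3, HSPA6, CRYAB, HSPA5, HSPA9 and HSF4. CHORDC1, DGAT1, CCT2, CCT6A, HSF5 and the markers described, like the other genes outside that rule, were named after their values were seen. Annotation was GENCODE release 44 on GRCh38, promoters were RefSeq windows, and 31-base stretches were sampled every 10 bases for the scaffold search. The values of 2 listed genes are not reported here, though the list counts and medians include them. The comparison of protein sequences that was planned was not run, since no protein table was used here. Other settings tried were scaling by DESeq2 1.42.0 size factors, by upper quartiles or by total counts, a pseudocount of 0.1 or 2 CPM, keeping all genes or those with 5 CPM, leaving out mitochondrial and the 20 most abundant genes, a fold of 1.5, and a difference past the limit whose interval leaves out a ratio of 1.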

Additional observations from a re-analysis of the deposited data

How the results depend on the processing

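No paired analysis was possible because there was 1 library on each side, and for the same reason no library could be left out. Of 172 values recomputed under the alternatives, 170 stayed within the counting interval of the member's ratio, within 1.5 times the count of genes or within 0.1 of the list median, and 0 changed the sign of a ratio past the limit. An allowance of 0.1 is wide beside several list medians. The mitochondrial list went from 0.02 to 0.05 with the filter at 5 CPM. The list of HSF factors and HSF1 regulators went from -0.05 to -0.02 with upper-quartile scaling. No list median changed sign. With a fold of 1.5 in place of the limit of 25%, the count of members on the higher side went from 3 to 0, since the stricter limit lies above all of their ratios. Without a filter on low counts, the median of the small heat shock proteins went from 0.44 to 0.27, because genes with a few counts then entered the list. Over the alternatives, the log2 ratio of HSF1 ran from 0.01 to 0.03, HSP90AA1 from 0.36 to 0.39, HSPD1 from 0.42 to 0.44 and HSPB1 from 0.44 to 0.47, and HSPH1, from -0.02 to 0.00864, was the only tested member whose range held 0. Upper-quartile scaling moved the median of all genes tested from -0.02 to -0.00143. Summing HSPA1A and HSPA1B gave 8 and 4 counts, which did not pass the filter and gave no ratio. For HSPA1A, HSPA1B, HSPA6 and CRYAB the counts were too few to detect a difference, and why those of HSPA1A and HSPA1B were low was not tested.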

Other observations

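Some genes of the table that share a name or a role with the members were not described above. The processed copy HSP90AA2P had 167 counts with si-NC and 213 with si-SRSF2, a log2 ratio of 0.77 (interval 0.51 to 1.11), beside 0.36 for HSP90AA1. HSPD1P1 had 236 and 227 counts, a log2 ratio of 0.39 (interval 0.13 to 0.67), beside 0.42 for HSPD1. HSPD1P4, another copy of HSPD1, had 32 and 47 counts, a log2 ratio of 0.83 (interval 0.33 to 1.71). HSP90AB3P had 135 and 109 counts, a log2 ratio of 0.14 (interval -0.23 to 0.52), beside 0.25 for HSP90AB1. These copies were named after their values were seen.

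UBB, which supplies ubiquitin under heat stress, had 353 CPM with si-NC and 424 with si-SRSF2, a log2 ratio of 0.26 (interval 0.21 to 0.31). Of its canonical exon bases, 49.4% are also covered by a gene on the opposite strand, so its count carries the same limit on strand as that of HSF1. VCP, the segregase that pulls ubiquitin-marked proteins from complexes, had 285 and 243 CPM, a log2 ratio of -0.23 (interval -0.30 to -0.17). Exons of another gene on the same strand cover 12.6% of the canonical VCP exon bases, and how reads there were assigned was not tested. UBB and VCP were named after their values were seen.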
